A study of Mus musculus with 32 samples.

Results

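Lhx6 interneurons of the embryonic mouse cortex were examined in single-cell RNA profiles. Members were chosen by their own UMI counts: a cell barcode was taken when it held at least 2 UMIs of Gad2 and Dlx6os1 together, at least 1 UMI of Lhx6, at most 1 UMI of Neurod6 and no UMI of Eomes. A UMI is a tag that marks 1 captured RNA molecule. Of 145082 deposited barcodes, 143705 held at least 1000 UMIs and 500 genes, and 1433 of these were members. The members numbered 1 at E12.5, 554 at E14.5, 320 at E16.0 and 558 at E17.5.

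The tissue was dorsal telencephalon of C57BL/6J embryos, either wild type (WT) or heterozygous for Chd8 (Chd8+/-, written het below), a gene that encodes a chromatin remodeller. How the disrupted Chd8 allele was made is not given in the sources used here. Each of the 8 groups, formed by 4 stages and 2 genotypes, held 4 libraries, 1 per embryo, with the male ones named M1 and M2 and the female ones F1 and F2. The embryos formed 16 pairs of litter mates, each of 1 sex and with both genotypes. Medial tissue, with the future hippocampus, had been cut away, and RNA was tagged at its 3′ end with version 2 of the 10x Genomics droplet chemistry.

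Lhx6 interneurons are inhibitory neurons that arise outside the cortex, in the medial ganglionic eminence (MGE) of the ventral telencephalon, under the transcription factor Nkx2-1. Lhx6, which acts downstream of Nkx2-1, is needed for their migration into the cortex and for their later division into somatostatin (Sst) and parvalbumin (Pvalb) classes. Dorsal tissue therefore holds those cells of the lineage that have already migrated in, and genes of the birthplace are usually switched off by then.

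Lhx6 lies at chr2:36081953-36105408 on the minus strand of GRCm38, Gad2, which encodes a GABA-synthesising enzyme, at chr2:22622205-22693874 on the plus strand, and Dlx6os1, a long non-coding RNA, at chr6:6820189-6871592 on the minus strand, where it overlaps Dlx6 on the other strand. These genes, with Neurod6 and Eomes, chose the members, and their levels are given only as a description. Summed over the members of a library and scaled to a common library total (CPM), Lhx6 ran from 382 to 713 over the 24 libraries of E14.5 to E17.5. The barcodes that met every condition other than Lhx6 numbered 2004 and held it at 0 by definition. They are called Lhx6-negative interneuron barcodes here, and the 3437 barcodes of both kinds are called interneuron barcodes. A further 76753 barcodes with Neurod6 and neither Gad2 nor Dlx6os1 served as excitatory neurons for comparison, and Lhx6 averaged 0.686 CPM in them.

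Genes that took no part in the selection were compared with Neurod6 barcodes. Both classes were chosen in opposite ways by Gad2, Dlx6os1 and Neurod6. The values therefore describe GABA against excitatory identity and do not bear on Lhx6. Gad1, the other GABA-synthesising enzyme, averaged 161 CPM in members against 0.397 in Neurod6 barcodes. Dlx1, which specifies forebrain GABA neurons, averaged 351 against 1.56. Over pooled barcodes Dlx1 stood at 346 CPM in members with 1 Lhx6 UMI and at 350 in those with more. It stood at 584 CPM in Lhx6-negative interneuron barcodes. Neurod2, a transcription factor of excitatory neurons, averaged 21.3 CPM in members against 919 in Neurod6 barcodes.

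Members and Lhx6-negative interneuron barcodes differed in markers of birthplace and in genes of cell division. Sp8 and Adarb2, which mark interneurons of the caudal ganglionic eminence (CGE), averaged 1.86 and 5.25 CPM in members against 101 and 215, and both were lower in members in 24 of 24 libraries. Prox1, another CGE transcription factor, averaged 4.26 against 59.5, whereas Nr2f1, a nuclear receptor also used as a CGE marker, averaged 189 against 264, at 262 against 245 in E14.5 and 103 against 289 in E17.5 libraries. Meis2, on the list of striatal markers, and Pax6, on that of radial glia, averaged 62.1 and 16.1 CPM in members against 484 and 184. The summed striatal and radial glia markers had medians of 159 and 722 CPM in members against 731 and 1518. The Lhx6-negative barcodes were therefore not marked by CGE genes alone. Cell cycle genes were lower in members as well: their summed level had a median of 215 CPM against 2428, and Ccnd2, a cyclin of dividing progenitors, and Top2a, a topoisomerase of dividing cells, averaged 93.3 and 29.9 CPM against 1560 and 252, each lower in 23 of 24 libraries. The largest ratio against members was that of Gnrh1, the gonadotropin-releasing hormone gene, at 0.0579 against 190 CPM. That mean over libraries rested on 331 UMIs in Lhx6-negative barcodes, while the 215 CPM of Adarb2 rested on 1701. The spread of Gnrh1 over libraries was not examined, so it is not given as a trait of the whole class. The genes with the largest ratio in favour of members included Cck, a neuropeptide, at 148 against 34.6 CPM, Npy, the neuropeptide Y gene, at 778 against 189, Gria1, an AMPA receptor subunit, at 293 against 85.0, and Maf, a transcription factor of MGE interneurons, at 609 against 200. Nxph1, a neurexin ligand of MGE interneurons, averaged 376 against 125, and Sst averaged 823 against 279. These barcodes were divided by Lhx6 itself, so the contrast is a description with no test.

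**Figure D1:**
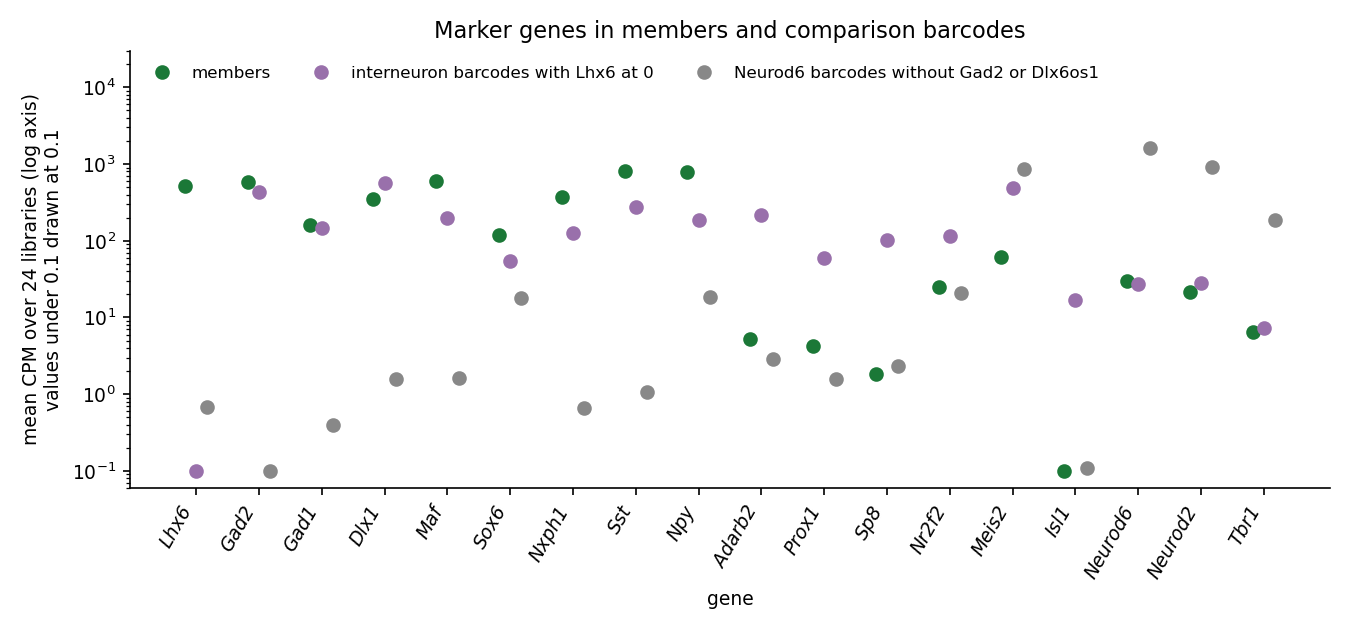
Mean level (CPM, log axis) of marker genes over the 24 libraries of E14.5 to E17.5 in members (green), Lhx6-negative interneuron barcodes (purple) and Neurod6 barcodes (grey). Points under 0.1 CPM are drawn at 0.1. Maf, Nxph1, Sst and Npy lie highest in members, Adarb2, Prox1 and Sp8 lie highest in Lhx6-negative barcodes, and Neurod2 and Tbr1 lie highest in Neurod6 barcodes.

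Barcodes just inside and just outside the limits of the selection are described without a test. The 426 members with exactly 2 UMIs of Gad2 and Dlx6os1 carried an Sst UMI in 33.6% of cases and a Dlx1 UMI in 59.2%, and the 410 barcodes with 1 such UMI, just outside, in 30.5% and 55.9%. Members with a single Lhx6 UMI numbered 615 and had Nxph1 in 63.3%, those with more numbered 818 and had it in 67.6%, and barcodes with none had it in 17.8%. Sst was found in 27.2%, 36.9% and 7.39% of the same classes. The 159 members with 1 Neurod6 UMI had Neurod2 in 12.6%, against 41.2% of the 17 barcodes with 2 Neurod6 UMIs, which were left out.

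Markers of other cells were present in members at different levels. The 10 excitatory markers summed to between 346 and 633 CPM, against 2941 to 4783 in Neurod6 barcodes, with Eomes at 0 by the rule. Most of that sum was Bcl11b (388 CPM on average), a transcription factor that interneurons also express. Of 14 striatal markers, Isl1, Drd1, Drd2 and Zfp503 were at 0, and the sum lay between 51.4 and 341 CPM. The CGE markers, with Vip at 0, summed to between 176 and 755 CPM and had a median of 350, close to the 400 of all barcodes that passed and the 398 of Neurod6 barcodes. The oligodendrocyte precursor markers summed to at most 173, and those of microglia and meninges to at most 44.5 with Dcn at 0. Radial glia markers ran from 307 to 4111 CPM, highest in a WT library of E16.0, and cell cycle genes from 37.2 to 1992. Members with at least 3 cell cycle UMIs made up between 2.22% and 6.10% of a group.

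The 32 libraries held between 14710694 and 66499864 UMIs in all barcodes. Blood RNA was uneven between them. The summed level of the markers of vessels and blood reached 33619 CPM in members of E17.5 WT, and the globin genes made up nearly all of it. Globin RNA stood at 33616 CPM in WT M1 and 25740 in het F2 at E17.5, at 5545 in het F1 of that stage and at 12569 in WT M1 of E14.5, and lay at or under 600 CPM in the other libraries. Its part in the differences below was not tested, except where a value without a library is given. Depth was higher at E14.5 than later. The median UMI count over all members was 5491 at E14.5, 3188 at E16.0 and 3338 at E17.5. The median UMI count of members lay between 3740 and 6100 per library at E14.5, between 2871 and 3391 at E16.0 and between 2635 and 3693 at E17.5. Barcode sequences recurred across libraries: of 130769 distinct sequences that passed, 12168 were found in more than 1 library, and 2 were members in more than 1. A score from simulated doublets marked 17 of the 1433 members, which stayed in.

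The mean share of barcodes that were members varied between stages, but no step between stages passed the adjusted threshold in WT. At E12.5 it was 0.0174% in WT M1, a single barcode with 31 Sst UMIs, and 0 in the other 7 libraries, where a count of 0 allows up to 0.0150% over the het group, counting error only. At E14.5 the WT libraries M1, M2, F1 and F2 held 2.84%, 2.44%, 0.975% and 1.16% members, and the het libraries 2.96%, 1.61%, 0.913% and 0.917%. Both male pairs lay above both female pairs at this stage, and the male and female pairs also carry different codes in the labels, so sex and code cannot be told apart.

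At E16.0 the shares were 0.675%, 0.661%, 1.18% and 0.462% for WT embryos and 0.307%, 1.04%, 0.712% and 0.681% for het embryos. At E17.5 they were 1.65%, 2.66%, 1.70% and 1.14% for WT and 1.80%, 2.48%, 2.44% and 1.68% for het embryos. The WT mean therefore stood at 1.86% ± 0.926 (SD, n = 4) at E14.5, 0.745% ± 0.306 (SD, n = 4) at E16.0 and 1.79% ± 0.633 (SD, n = 4) at E17.5. The E16.0 values were lowest on average but overlapped those of E14.5 and E17.5.

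In WT the step from E12.5 to E14.5 was a gain of 1.85 percentage points with no overlap between libraries (exact permutation test, two-sided p = 0.0286, the smallest that 4 against 4 can give, adjusted p = 0.0857 over the 3 steps). The fall to E16.0 was -1.11 points (exact p = 0.0857) and the gain to E17.5 was 1.04 points (exact p = 0.0571), each with an adjusted p of 0.0857, so no step passed the threshold of 0.05 after adjustment. When barcodes were thinned to 3000 UMIs and those with fewer were left out, the steps were 0.942, -0.499 and 0.494 points in the same order. This left out 0 of 20808 WT barcodes at E12.5, 723 of 16019 at E14.5, 2737 of 19057 at E16.0 and 2851 of 15026 at E17.5. The libraries of different stages carry different codes in the labels, which do not say what the codes mean, so stage and code cannot be told apart.

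The share did not differ detectably between genotypes. Averaged over the stages the het share minus the WT share was -0.00152 percentage points (permutation test within stages, two-sided, p = 0.994), with het higher in 6 and lower in 7 of the 16 pairs. Mean shares in het libraries were 1.60% ± 0.963 (SD, n = 4) at E14.5, 0.685% ± 0.301 (SD, n = 4) at E16.0 and 2.10% ± 0.419 (SD, n = 4) at E17.5. The difference was -0.256 points at E14.5, -0.0592 at E16.0 and 0.313 at E17.5, with an exact permutation p of 0.771, 0.829 and 0.543 and an adjusted p of 1.00 at each. The spread between libraries of 1 genotype exceeded every one of these differences.

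Before thinning, the Lhx6-positive part of all interneuron barcodes was highest on average at E14.5 in both genotypes. The Lhx6-negative ones in that total also carried cell cycle and striatal marker RNA, as given above, and were not sorted further. In WT it was 61.6% ± 7.19 (SD, n = 4) at E14.5, 47.7% ± 6.74 (SD, n = 4) at E16.0 and 37.2% ± 12.5 (SD, n = 4) at E17.5. The het means were 67.3% ± 12.7, 34.1% ± 9.73 and 45.1% ± 15.2 (SD, n = 4 each). At an equal depth of 3000 UMIs, with shallower barcodes left out, the WT libraries ran from 41.1% to 73.1%, from 37.4% to 70% and from 17.7% to 43.8% over the 3 stages, and the het libraries from 37.7% to 65.6%, from 16.2% to 35.4% and from 23.8% to 58.8%. At that depth WT M1 of E14.5 stood at 41.1% in place of 64.6%, and the WT values of E14.5 and E16.0 overlapped. WT M1, M2 and F2 of E14.5, at 41.1% to 45.6%, lay below WT M1, M2 and F2 of E16.0, at 54.3% to 70%. The WT F1 libraries went the other way, at 73.1% in E14.5 and 37.4% in E16.0. The lead of E14.5 over E16.0 in WT was therefore not kept at equal depth. The 70% of WT F2 at E16.0 rested on 10 interneuron barcodes. No test was run between stages. Averaged over the stages and before thinning, the genotypes differed by -0.142 percentage points (permutation test, two-sided, p = 0.970, het higher in 6 and lower in 6 of 14 pairs). E12.5 entered this average, with values from 0 to 1.75%. At E16.0 the WT libraries M1, M2, F1 and F2 stood at 54.1%, 48.5%, 38.3% and 50.0% and the het libraries at 37.5%, 46.4%, 26.1% and 26.6%, het lower in each pair, and this stage was not tested on its own. At the equal depth the het libraries M1, M2, F1 and F2 of E16.0 stood at 27.3%, 35.4%, 21.8% and 16.2%. Each lay below every WT library of that stage, and this separation was not tested. At E17.5 the M1 and F1 libraries of both genotypes, whose label codes begin with the letter p, lay between 47.0% and 60.2%, and the other libraries between 24.4% and 45.2%.

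**Figure D2:**
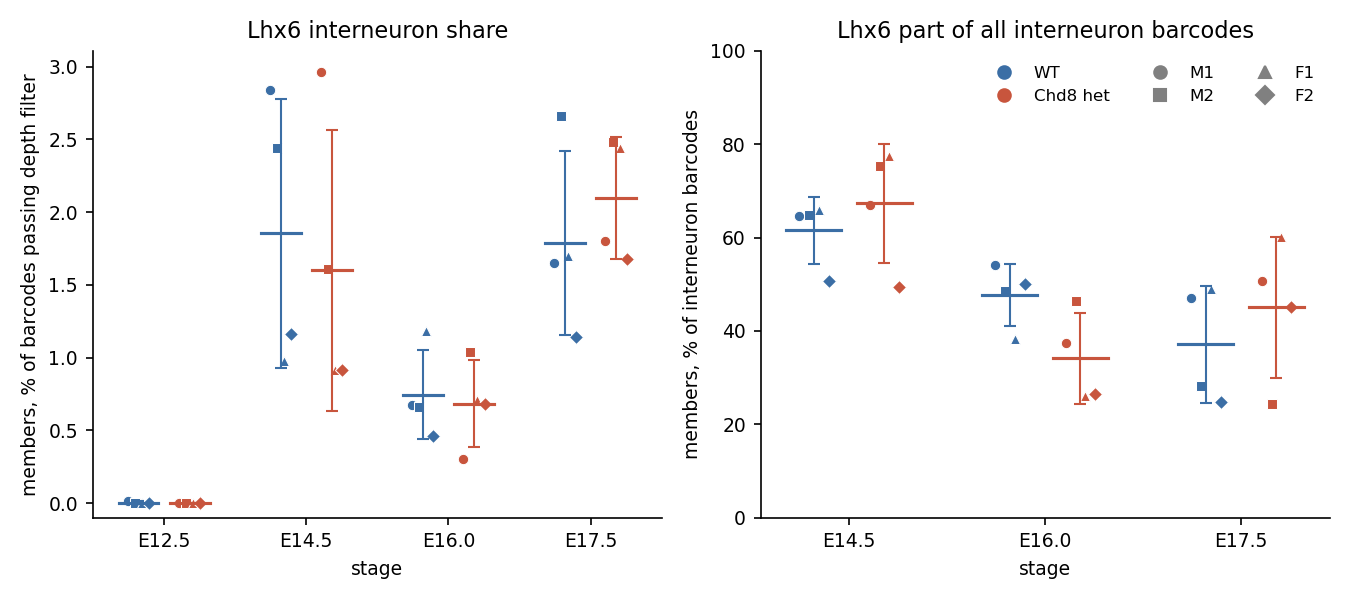
Left, members as a percentage of barcodes that passed the depth filter, by stage. Right, members as a percentage of interneuron barcodes at E14.5 to E17.5. Each point is a library, WT in blue and het in red, lines mark the mean and bars the SD of 4 libraries. The share was near 0 at E12.5 and its WT mean was 1.86% at E14.5, 0.745% at E16.0 and 1.79% at E17.5. The values drawn are those before thinning, and in them the genotypes overlap at every stage.

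Gene levels were compared over the 24 libraries of E14.5 to E17.5, which held 15 to 122 members each, with the counts of a library's members summed and fitted with edgeR. Of the genes listed, 4716 had counts enough to be tested. Between E14.5 and E17.5, averaged over both genotypes, 994 genes (21.1% of those tested) passed an adjusted p of 0.05, 548 (11.6%) higher and 446 (9.46%) lower at E17.5. In WT alone 138 genes (2.93%) passed, 80 (1.70%) higher and 58 (1.23%) lower. In het alone 337 (7.15%) passed, 202 (4.28%) higher and 135 (2.86%) lower. Both counts moved with single libraries. The WT count was 48 without E14.5 WT M1, 61 without E14.5 WT M2 and 77 without E17.5 WT M1. The het count was 74 without E14.5 het M1, when WT gave 134, and it was 158, 219, 143 and 93 without E14.5 het M2, E14.5 het F2, E17.5 het M1 and E17.5 het F1, and 607 without E17.5 het M2. The change itself differed between genotypes for 0 genes (edgeR; 104 at an unadjusted p under 0.05, and 0 with DESeq2). That count was 5 of 15987 genes without the filter on low counts and 4 without E17.5 WT M1. This comparison of the outer stages was added after the data had been seen. Its average over both genotypes treated litter mates as independent libraries, so those p values take no account of the pairing. Library profiles were also summed over all barcodes that passed, not members alone. On their first principal component at E17.5 (63.4% of variance), WT M1, het M1 and het F1 stood apart. Their scores were 29.7 to 41.2 against -32.6 to -0.3 for the others. Whether the members of these libraries stood apart was not examined. WT M1, het M1 and het F1 share their label code start with WT F1, and the part of that code in the changes was not tested. Without these 3 libraries 477 of 5000 genes passed, 283 higher and 194 lower, of which 383 were among the 994, and the list counts given below without them are to be read against these. With them left out, 124 genes passed in WT alone and 70 in het alone, and the change differed between genotypes for 4. At E14.5 the pair WT F1 and het F1 stood apart in the same way (54.3% of variance), at scores of 31.4 and 28.5 against -23.3 to 8.6. Without this pair 1255 of 5309 genes passed, 686 higher and 569 lower, of which 951 were among the 994, and 207 passed in WT alone and 527 in het alone.

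Sst fell most of all the genes named by the rule. It encodes somatostatin, the peptide that defines a major class of MGE interneurons, and lies at chr16:23889573-23890958 on the minus strand. In the WT libraries M1, M2, F1 and F2 Sst stood at 1203, 1802, 710 and 1557 CPM at E14.5, at 586, 954, 584 and 540 at E16.0, and at 301, 268, 298 and 259 at E17.5. In the het libraries it stood at 1508, 993, 3130 and 1535 CPM, then 1601, 158, 638 and 353, and then 113, 211, 343 and 112. Every E14.5 library lay above every E17.5 library in both genotypes, and the E16.0 values, from 158 to 1601, overlapped both stages. The fitted change from E14.5 to E17.5 was a log2 fold change of -2.60 (SE 0.29, 6.06-fold lower, edgeR adjusted p = 1.58e-07), -2.14 in WT and -3.06 in het, and without the 3 libraries that stood apart it was -2.73.

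Fewer members carried Sst at the later stages. Members with at least 2000 UMIs, which were 554 of 554 at E14.5, 309 of 320 at E16.0 and 539 of 558 at E17.5, were thinned to that depth, and 42.8% of them had an Sst UMI at E14.5, 23.3% at E16.0 and 15% at E17.5, against 0.162% of Neurod6 barcodes. Per library the WT percentage was 43.7% ± 10.8 (SD, n = 4), 24.2% ± 6.14 and 14.9% ± 2.07, and the het percentage 42.5% ± 4.77, 27.3% ± 9.41 and 14.1% ± 3.20. Members with 10 or more Sst UMIs made up 6.14%, 3.56% and 0.557% of all thinned members, which were 34 of 237, 11 of 72 and 3 of 81 of those with Sst. The median Sst count where present was 3, 2.5 and 2 UMIs. Sst also fell in Lhx6-negative interneuron barcodes, from 707 CPM ± 723 (SD, n = 8) at E14.5 to 72.0 ± 94.4 (SD, n = 8) at E17.5, and whether the fall differed between both kinds of barcode was not tested. In such sums, fewer members with the gene and less RNA per member cannot be told apart, nor can loss of Sst from cells and the arrival of other cells.

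Npy, a second neuropeptide of this lineage, did not follow Sst. It ran from 541 to 2023 CPM (median 830) at E14.5, from 330 to 1416 (median 768) at E16.0 and from 309 to 917 (median 605) at E17.5, and its log2 fold change of -0.47 missed the threshold (edgeR adjusted p = 0.171). The percentage of thinned members with an Npy UMI was 35.9%, 39.5% and 36.2%. Npy was found more often beside Sst: at E14.5 51.9% of members with Sst also held Npy, against 24% of those without, at E16.0 68.1% against 30.8%, and at E17.5 60.5% against 31.9%. Members of 1 library share their source, so these are descriptions over pooled members.

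The other subtype genes moved in both directions. Of 18 genes on the list of MGE subtype genes 7 were tested, 2 rose and 2 fell, where 11.6% of all genes rose and 9.46% fell, with a median log2 fold change of -0.30 against 0.02 over all genes. Calb1, a calcium-binding protein, ran from 17.1 to 151 CPM at E14.5 and from 0 to 40.0 at E17.5 and fell by 1.41 on the log2 scale (SE 0.34, edgeR adjusted p = 0.00433). Etv1, a transcription factor of a set of MGE interneurons, rose from a median of 10.6 CPM to 66, with ranges of 0 to 50.3 and 17.8 to 107 that overlap (log2 fold change 2.32, SE 0.37, edgeR adjusted p = 4.33e-05). Mef2c, a transcription factor linked to the parvalbumin class, rose from a median of 546 CPM to 888, with ranges that overlap (log2 fold change 0.72, SE 0.14, edgeR adjusted p = 0.000448). At E14.5 and E17.5 Mef2c averaged 342 and 295 CPM in Lhx6-negative and 150 and 625 in Neurod6 barcodes. Pvalb itself, which begins to be expressed after birth, had no UMI in any member. Nxph1 and Reln, also on the list, had log2 fold changes of -0.30 and 0.16 that missed the threshold. Without the F1 pair of E14.5, Nxph1 passed as well. In that setting 2 of 7 rose and 3 fell, against 686 and 569 of 5309 genes.

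**Figure D3:**
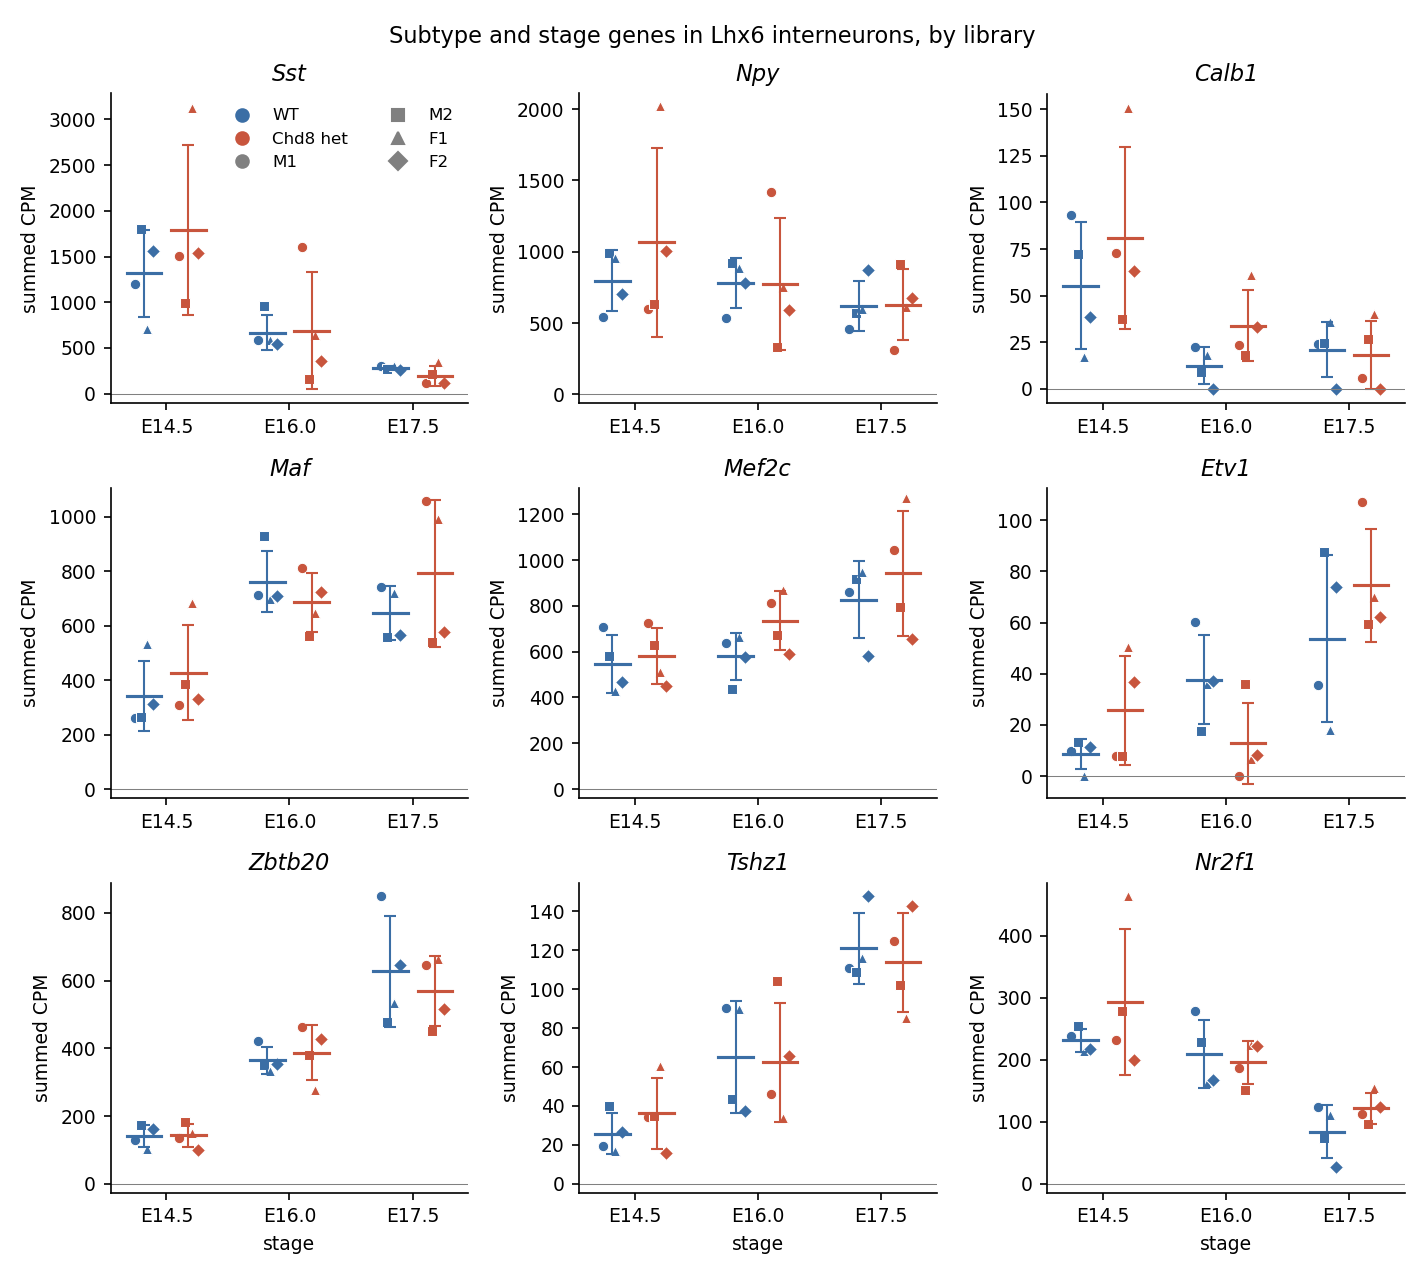
Summed level (CPM) in members for 9 genes at E14.5, E16.0 and E17.5. Each point is a library, WT in blue and het in red, lines mark the mean and bars the SD of 4 libraries. For Sst, Nr2f1, Tshz1 and Zbtb20 every E14.5 library lies on 1 side of every E17.5 library, and for the other genes the stages overlap.

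Among the transcription factors of the MGE lineage, 3 of 8 tested rose and 1 fell, where 11.6% of all genes rose and 9.46% fell. Without the 3 libraries that stood apart 2 rose and 0 fell, and without the F1 pair of E14.5 3 rose and 0 fell. Maf, whose gene lies at chr8:115682942-115707794, ran from 261 to 684 CPM (median 322) at E14.5, from 560 to 928 (median 710) at E16.0 and from 541 to 1057 (median 649) at E17.5. The highest E14.5 values, 531 and 684 CPM, were those of the F1 pair that stood apart, and without it the log2 fold change to E17.5 was 1.29. Its rise lay between E14.5 and E16.0, with ranges that overlapped at their ends, and from E14.5 to E17.5 the log2 fold change was 1.03 (SE 0.17, edgeR adjusted p = 8.01e-05). Zeb2, which is needed for cortical rather than striatal fate of MGE cells, rose from 494 to 662 CPM at E14.5 to 719 to 1253 at E17.5 with no overlap (log2 fold change 0.75, SE 0.12, edgeR adjusted p = 4.45e-05). Lmo3, at 0.67, and Npas1, at -0.61, passed with an edgeR adjusted p of 0.0328 and 0.0465, and both lost the call when any of several single libraries was left out and when the 3 E17.5 libraries were. Sox6 and Satb1, which act after Lhx6, had log2 fold changes of -0.02 and -0.25, and neither passed.

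Nkx2-1, the factor of the birthplace, was nearly absent. It was found in 22 of 1432 members of E14.5 to E17.5 and was at 0 in 14 of the 24 libraries. The highest levels were those of WT M2 and het M2 of E17.5, a pair, at 35.6 and 29.7 CPM. Lhx8, a sister gene of Lhx6 that stays on in other ventral neurons, was found in 3 members.

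Of 6 tested transcription factors common to all interneurons, 0 rose and 2 fell (median log2 fold change -0.12), against 9.46% of all genes that fell, and without the 3 libraries the counts were the same. Dlx5 ran from 292 to 640 CPM at E14.5 and from 184 to 325 at E17.5 and fell by 0.95 on the log2 scale (SE 0.17, edgeR adjusted p = 0.000263). Dlx1 and Dlx2 had log2 fold changes of 0.11 and -0.06, neither past the threshold. Slc32a1, the transporter that loads GABA into vesicles, was the only 1 of 4 tested genes of GABA metabolism outside the rule to pass, a share near the 21.1% over all genes, and it fell by 0.71 (SE 0.13, edgeR adjusted p = 0.000383), from a median of 205 CPM to 121. Gad1 was at -0.28 and did not pass.

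Of the 16 genes of migration and guidance 7 were tested. All had positive log2 fold changes, with a median of 0.53 against 0.02 over all genes, and 1 of them passed, where 21.1% of all genes did. Without WT F1 and het F1 of E14.5, 6 of 8 passed and all 6 were higher, against 1255 of 5309 genes. Epha4, an ephrin receptor, rose from 15.8 to 40.3 CPM at E14.5 to 40.1 to 98.9 at E17.5 (log2 fold change 1.55, SE 0.25, edgeR adjusted p = 5.49e-05), with ranges that overlap at their ends. At these stages Epha4 averaged 63.7 and 110 CPM in Lhx6-negative and 116 and 131 in Neurod6 barcodes. The chemokine receptor gene Cxcr4, which keeps migrating interneurons in their streams, was at 0.59 (edgeR adjusted p = 0.0882), and Erbb4, the neuregulin receptor, at 0.53 (edgeR adjusted p = 0.0782). Ackr3, the second receptor of the Cxcr4 ligand, was at 0.17.

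Counts of receptor and synapse genes were lower without the 3 libraries, as was the count over all genes. Of 10 tested receptor subunits 4 rose and 1 fell, against 11.6% and 9.46% of all genes. Without WT M1, het M1 and het F1 of E17.5, 1 rose and 1 fell, against 283 and 194 of 5000. Grin2b, an NMDA receptor subunit, ran from 26.6 to 70.5 CPM at E14.5 and from 37.0 to 230 at E17.5 (log2 fold change 1.62, SE 0.25, edgeR adjusted p = 2.94e-05), and without the 3 libraries it was at 1.21 (edgeR adjusted p = 0.00323). At these stages Grin2b averaged 27.8 and 94.1 CPM in Lhx6-negative and 45.9 and 128 in Neurod6 barcodes. Grik1, a kainate receptor subunit, fell by 1.46 with all libraries (SE 0.30, edgeR adjusted p = 0.000905) and was at -2.64 without the 3 (edgeR adjusted p = 3.48e-05). Gria1 and Gria2, AMPA receptor subunits, lost the call without the 3 libraries, at 0.02 (edgeR adjusted p = 0.977) and 0.45 (edgeR adjusted p = 0.126), and Gria1 also lost it without any of 7 single libraries.

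Of 15 tested maturation and synapse genes 6 rose and 2 fell, against 11.6% and 9.46% of all genes. Without the 3 libraries 1 of 16 rose and 1 fell, a share near that over all genes (283 and 194 of 5000). Those that stayed past the threshold were Nrxn3, a presynaptic adhesion gene, at 0.48 (edgeR adjusted p = 0.00138 with all libraries), and Stmn2, a microtubule regulator of growing axons, which fell by 0.72 (SE 0.11, edgeR adjusted p = 1.71e-05), from 1767 to 2719 CPM at E14.5 to 1105 to 1483 at E17.5. Of 9 tested genes of immature neurons 0 rose and 3 fell, against 9.46% of all genes that fell, and 1 fell without the 3 libraries. The fall of Tubb2b, a tubulin of young neurons (-0.41, edgeR adjusted p = 0.00115), was the one that remained. Related tubulin genes can share reads, and how the authors' counting treated these is not given in the sources used here.

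Genes outside the lineage lists also passed. Zbtb20, a zinc finger factor, had the lowest p of all genes and is named, with Nfib, after its value was seen. It lies at chr16:42875881-43642602 on the plus strand, and several unnamed transcripts overlap it. In WT M1, M2, F1 and F2 it stood at 128, 174, 103 and 161 CPM at E14.5, at 421, 350, 332 and 354 at E16.0 and at 851, 479, 534 and 647 at E17.5. In het it stood at 136, 184, 151 and 99.9 CPM, then 464, 381, 278 and 427, and then 647, 452, 665 and 515. The E14.5 libraries lay below all E16.0 and all E17.5 libraries in both genotypes, and the log2 fold change to E17.5 was 2.13 (SE 0.14, edgeR adjusted p = 5.25e-13). Zbtb20 also stood higher at E17.5 in the other classes, at 158 and 488 CPM in Lhx6-negative and at 90.0 and 326 CPM in Neurod6 barcodes at E14.5 and E17.5, and the difference between classes was not tested.

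Other factors that rose were low in level. Nfix, of the nuclear factor I family that drives late steps of neural differentiation, rose from 0 to 16 CPM at E14.5 to 18.5 to 132 at E17.5 (log2 fold change 2.85, SE 0.32, edgeR adjusted p = 1.58e-07), and Nfib, of the same family, by 1.53 (edgeR adjusted p = 1.61e-05). In Neurod6 barcodes Nfix averaged 615 CPM at E14.5 and 950 at E17.5, and in Lhx6-negative barcodes 27.4 and 322. Nfib averaged 1589 and 1461 CPM in Neurod6 barcodes and 261 and 911 in Lhx6-negative barcodes. Pou3f2, a POU-domain factor, rose from 0 to 17.1 CPM to 24.6 to 172 (log2 fold change 2.89, SE 0.37, edgeR adjusted p = 1.45e-06), and it averaged 88.0 and 586 CPM in Neurod6 barcodes. RNA from excitatory neurons that moves into interneuron droplets was not modelled, and its part in the rise of genes high in those neurons was not tested.

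Tshz1 rose and Nr2f1 fell. Tshz1, a zinc finger factor on the list of striatal genes, rose from 15.8 to 60.4 CPM at E14.5 to 85.0 to 148 at E17.5 with no overlap (log2 fold change 1.98, SE 0.21, edgeR adjusted p = 8.88e-08), while it averaged 56.0 and 83.7 CPM in Lhx6-negative and 16.9 and 19.7 in Neurod6 barcodes. Whether its rise differed between these classes was not tested. Nr2f1 fell from 200 to 463 CPM to 27.7 to 155 (log2 fold change -1.18, SE 0.17, edgeR adjusted p = 1.61e-05), while it averaged 245 and 289 CPM in Lhx6-negative and 211 and 264 in Neurod6 barcodes. The percentage of thinned members with an Nr2f1 UMI was 35.9%, 26.2% and 16.5% over the 3 stages. Of the 14 striatal and 10 CGE genes only 2 on each list had counts enough to be tested. On each list 1 of these 2 passed, where 21.1% of all genes did. Isl1, another factor on the list of striatal genes, was at 0 in members throughout.

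Further genes named by size were Nav2, a neuron navigator protein, at 3.55 (SE 0.40), C230057M02Rik, at 2.98, and Ptprz1, a receptor phosphatase, at 2.20, which lost the call without the 3 libraries (edgeR adjusted p = 0.0911). Those that fell included Cdkn1c, an inhibitor of the cell cycle found in newly born neurons, which went from a median of 288 CPM to 96.0 (log2 fold change -1.60, SE 0.19, edgeR adjusted p = 2.4e-07), and Tcim, Dpp10, Pdzrn4 and Sult4a1, at -1.80, -1.70, -1.61 and -1.61. Cdkn1c also stood lower at E17.5 in Lhx6-negative (150 and 37.2 CPM) and Neurod6 barcodes (269 and 113 CPM). The same held for Tcim, at 27.3 and 8.16 CPM in Lhx6-negative and 8.81 and 2.47 in Neurod6 barcodes. Nav2 stood higher at E17.5 in both classes, at 7.09 and 27.9 CPM in Lhx6-negative and 46.6 and 143 in Neurod6 barcodes. The globin genes Hba-a1, Hba-a2, Hbb-bs and Hbb-bt passed as well, but each call was lost without E17.5 WT M1, and near-identical copies of these genes can share reads.

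**Figure D4:**
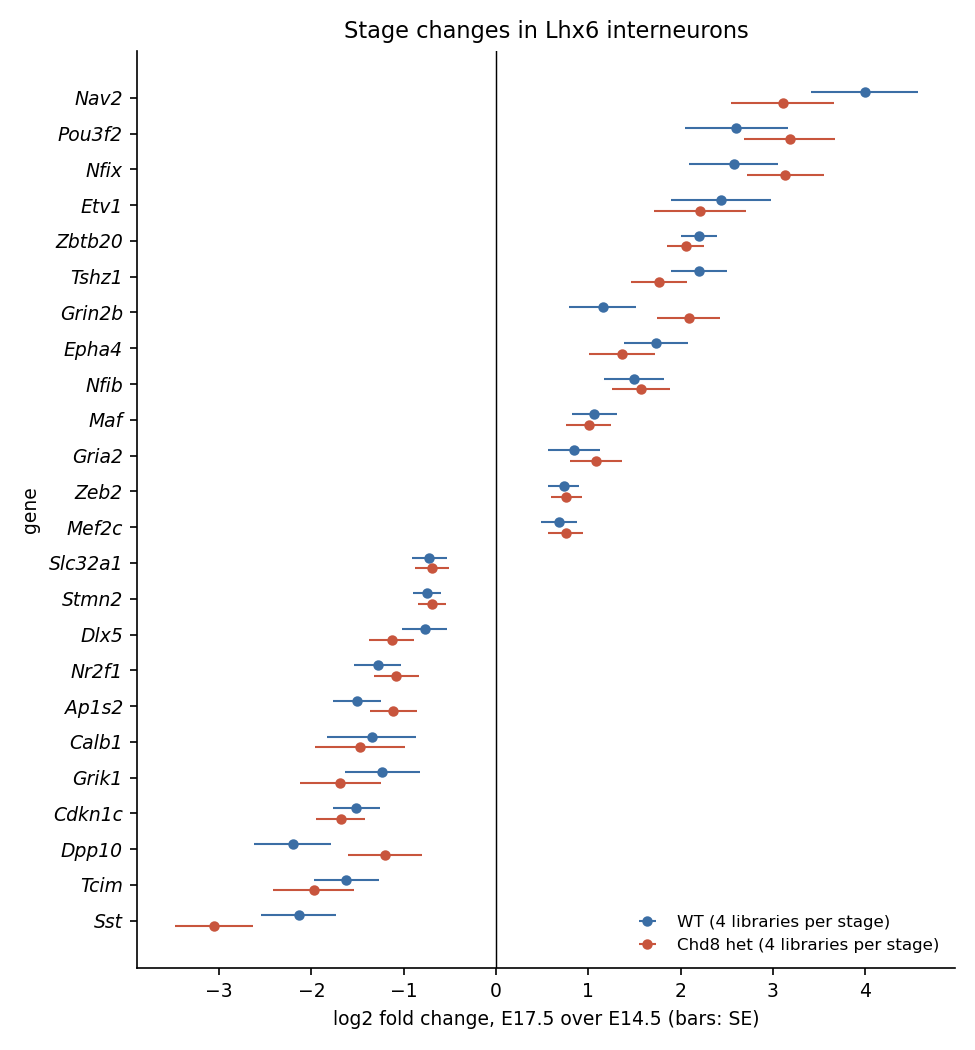
Fitted log2 fold change from E14.5 to E17.5 in members for 24 genes, WT in blue and het in red, 4 libraries per genotype and stage, with bars of 1 SE. WT and het points have the same sign for every gene drawn, as for Sst at -2.14 and -3.06. Gria2 lost the call without 3 E17.5 libraries.

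The single steps gave fewer calls. In WT from E14.5 to E16.0, 26 genes (0.551%) passed, 19 (0.403%) higher and 7 (0.148%) lower. The same step in het gave 7 genes (0.148%), 5 (0.106%) higher and 2 (0.0424%) lower, and Hist1h2bc, Zbtb20 and Mir100hg passed in both, while 25 of the 26 had the same sign in het. Pou3f2 rose by 3.32 (SE 0.55, edgeR adjusted p = 0.000920), Zbtb20 by 1.31 and Maf by 1.19 (SE 0.25, edgeR adjusted p = 0.0129) on the log2 scale in WT. Ina, a neuronal intermediate filament gene, fell by 1.11 (edgeR adjusted p = 0.00135). Grik1 was at -2.48 (edgeR adjusted p = 0.0378) and did not pass in DESeq2 (adjusted p = 0.0936). Maf lost the call without E14.5 WT M1, E14.5 WT M2 or E16.0 WT M2 (highest edgeR adjusted p = 0.101), Hist1h2bc lost it without E14.5 WT M2 (edgeR adjusted p = 0.0784), and Grik1 lost it without any of 6 single libraries. Without E14.5 WT M1 10 genes passed in place of 26. From E16.0 to E17.5 0 genes passed in either genotype with edgeR (412 in WT and 478 in het at an unadjusted p under 0.05), whereas DESeq2 called 61 in WT and 40 in het and gave no adjusted p to 4298 and 4480 genes of low counts.

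The comparison of genotypes asked whether 1 lost copy of Chd8 changed gene levels in these cells. Chd8, at chr14:52198151-52257780 on the minus strand, was counted in 375 UMIs over all 24 libraries, between 3 and 43 each. In WT M1, M2, F1 and F2 it stood at 58.4, 34.3, 77.0 and 61.2 CPM at E14.5, at 67.6, 87.5, 67.4 and 74.4 at E16.0 and at 83.1, 49.2, 93.5 and 64.7 at E17.5. In het it stood at 56.8, 55.9, 111 and 47.3 CPM, then 69.6, 50.3, 67.9 and 32.9, and then 143, 29.7, 70 and 55.8. The genotypes overlapped at every stage, and het was lower in 7 of 12 pairs (log2 fold change -0.13, SE 0.21, unadjusted p = 0.542, edgeR). The 3′ tags do not show which copy a UMI came from, and where the disrupted copy is broken is not given in the sources used here, so these counts do not check the genotype labels.

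No gene passed the threshold between genotypes (0% of 4716) when the 3 stages were averaged (edgeR; 177 at an unadjusted p under 0.05, and 0 with DESeq2). The count was also 0 at E14.5 (55 at an unadjusted p under 0.05), at E16.0 (156) and at E17.5 (182), 0 for a difference between stages (97), and 0 with DESeq2 in each. Medians of the lineage lists were 0.13 for the MGE transcription factors (6 of 8 positive), 0.12 for the common interneuron factors (5 of 6), 0.09 for the subtype genes (5 of 7), -0.05 for migration genes (2 of 7) and 0.05 for receptor subunits (7 of 10), against 0.00 over all genes. The cell cycle genes had a median of -0.24 (2 of 7 positive) and the vessel and blood markers, all globins as tested, one of -1.52 (0 of 3), with the uneven globin levels by library given above. Sst was at -0.09 (SE 0.24), Npy at 0.09 (SE 0.20) and Maf at 0.12 (SE 0.14).

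The lowest p was that of Tcim, a small regulator of transcription. It stood at 75.1, 82.0, 34.2 and 65.0 CPM in WT and 47.6, 47.9, 30.2 and 26.3 in het at E14.5, at 22.5, 43.8, 44.9 and 55.8 against 0, 14.4, 13.6 and 8.22 at E16.0, and at 15.8, 24.6, 26.7 and 9.24 against 0, 9.90, 10.0 and 18.6 at E17.5. Tcim was lower in het in 11 of 12 pairs, with no overlap at E16.0 and overlap at the other stages, and it rested on few UMIs, 238 in all. The log2 fold change was -1.20 (SE 0.28, unadjusted p = 0.000128) and the edgeR adjusted p of 0.602 did not pass. Rrnad1 followed at 0.92 (unadjusted p = 0.000865, edgeR adjusted p = 1.00), higher in het in 11 of 12 pairs, and then 2700097O09Rik, whose log2 fold change was below 0 and did not pass.

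Single list genes with a low p before adjustment included Grin2b at 0.51 (unadjusted p = 0.0322) and Satb1 at 0.28 (unadjusted p = 0.0354). Satb1 was higher in het in 10 of 12 pairs. Both had an edgeR adjusted p of 1.00. At single stages the lowest p values were those of the globin genes at E14.5, where WT M1 held 12569 CPM of globin RNA, of Snap91 (-1.85), Lmbr1l (1.65) and Bcl7a (1.03) at E16.0, and of Exoc1 (1.23), Cebpg (1.24) and C87436 (1.27) at E17.5, and none passed. Crlf2, Zcwpw1, Car14 and Gsta4, which had differed between genotypes in earlier results of these data, were too low in members to be tested.

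**Figure D5:**
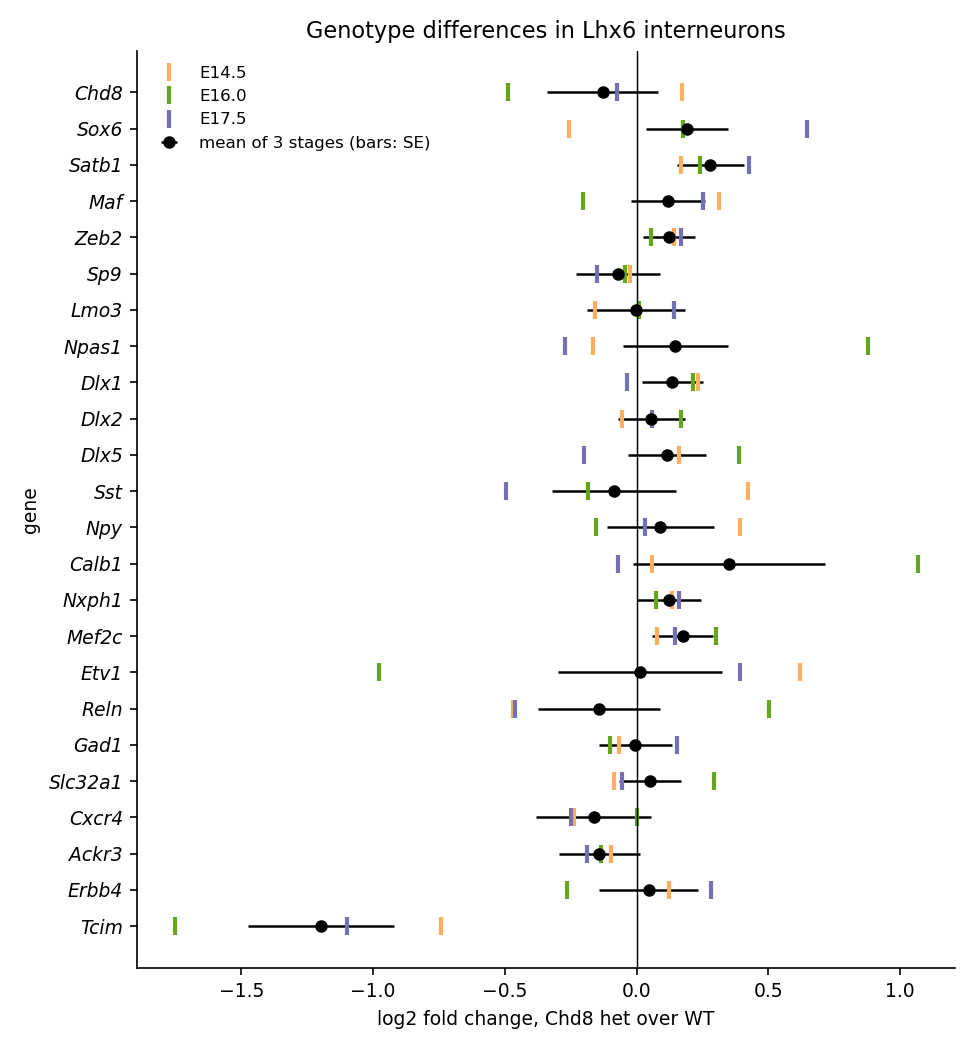
Fitted log2 fold change of het over WT in members for Chd8, 22 genes of the lineage lists and Tcim. Black points are the mean of 3 stages with bars of 1 SE, and coloured ticks are single stages. Black points other than that of Tcim at -1.20 lie within 0.5 of 0, and no gene passed the adjusted threshold.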

How the data were processed

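Per the labels' protocols, each library holds the dissociated dorsal telencephalon of a single embryo. The authors deposited raw UMI counts per gene and barcode, for the same genes in every library. The submitters' processing notes name STAR 2.7.9a, STARsolo, Cell Ranger and build mm10. No source used here states the use of strand or the treatment of reads shared by several genes, so UMIs of a gene and of a gene on its opposite strand (such as Dlx6 for Dlx6os1, Gm15655 for Maf, Zeb2os for Zeb2 and A830082K12Rik for Nr2f1) cannot be told apart.

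Barcodes with at least 1000 UMIs and 500 genes were kept. No barcode was removed by mitochondrial share or as a doublet in the values given first. Doublets were scored against simulated sums of barcode pairs, at an assumed 0.8% per 1000 barcodes. Free RNA was not modelled. Counts of members were summed per library, and CPM were computed from these sums. Libraries with at least 10 members, 24 in all, were fitted with edgeR 4.0.16 in R 4.3.3 (TMM scaling, expression filter by group, quasi-likelihood F test, Benjamini-Hochberg over 4716 genes, threshold 0.05) as groups of stage and genotype. The embryo is the replicate. Shares were compared by exact permutation of 4 against 4 libraries, or by 100000 permutations within stages for averages. Shares of a single library carry exact binomial (Clopper-Pearson) 95% intervals in the tables, and limits for 0 rest on 3 counts. Both cover counting error only. To compare stages at equal depth, barcodes were thinned to 3000 UMIs for shares and members to 2000 UMIs for percentages with a gene, and those with fewer UMIs were left out. Gene positions are from GENCODE M21 on GRCm38, in which 99.6% of the identifiers were found. The scripts (Python 3.11.15, numpy 2.4.6, pandas 2.3.3, scipy 1.17.1, scikit-learn 1.9.0) were tested on simulated counts.

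Members and the 18 gene lists were chosen with earlier results of these data known. Genes named are those of the lists, for each comparison the 10 largest rises and 10 largest falls among called genes whose log2 CPM averaged 5 or more and whose sign was shared by the other genotype, or the 3 lowest p where none was called, and the 15 genes with the largest ratio of members over Lhx6-negative interneuron barcodes at 100 CPM or more. Alternatives were DESeq2 1.42.0, no expression filter, a stricter selection (3 UMIs of Gad2 and Dlx6os1, 2 of Lhx6), a minimum of 30 members, removal of scored doublets or of barcodes over 10% mitochondrial UMIs, thinning, leaving out each library, the pair as a block and, chosen after seeing the data, leaving out libraries that stood apart at E14.5 or E17.5. Comparisons of genes at E12.5 were not made, since that stage gave 1 member. Results for some genes of the lists are not reported here.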

Additional observations from a re-analysis of the deposited data

Results flagged for a closer look

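In 7 of 108 groups of 4 libraries that were examined, 1 library lay farther from the other 3 than the 95% limit of Dixon's test allows, and chance alone passes that limit in about 1 of 20 groups. Globin RNA accounts for 3 of them: Hba-a1 stood at 3670 CPM in members of WT M1 at E14.5, at 9596 in WT M1 at E17.5 and at 6392 in het F2 at E17.5, far above the other libraries of each group. Chd8 stood at 111 CPM in het F1 at E14.5, above its group, on 11 UMIs. Sst stood at 954 CPM and Maf at 928 CPM in WT M2 at E16.0, both the highest of their group. Lhx6-positive barcodes made up 50.8% of the interneuron barcodes of WT F2 at E14.5, below the other WT libraries of that stage.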

How the results depend on the processing

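The genotype differences in shares changed sign under some settings while every p stayed over the threshold. The average share difference was 0.00873 percentage points under the stricter selection and ran from -0.115 to 0.0806 over leave-one-out settings. By stage these settings gave -0.00580 to 0 at E12.5, -0.708 to 0.0727 at E14.5, -0.178 to 0.0860 at E16.0 and 0.0977 to 0.603 at E17.5. The genotype difference in the Lhx6-positive percentage of interneuron barcodes was 1.38 points under the stricter selection, 0.00571 over E14.5 to E17.5 only, 0.00429 with the pair as a block and -1.40 to 1.59 over leave-one-out settings. The WT steps of the share ran from 1.52 to 2.14, from -1.40 to -0.782 and from 0.752 to 1.26 points when single libraries were left out.

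Without the filter on low counts, among 15987 genes, 6 genes passed between genotypes on average, 5 at E14.5, 3 at E17.5 and 7 for a difference between stages, and 92 and 74 for the WT steps to E16.0 and E17.5. Without E17.5 WT M1, het M1 and het F1 the counts were 4 for a difference between stages, 53 and 3 for the WT steps and 477 from E14.5 to E17.5. The WT step to E16.0 gave 41 genes without scored doublets and 7 in het libraries, and between 10 (without E14.5 WT M1) and 34 over leave-one-out settings. The WT step to E17.5 gave 61 genes with DESeq2 and between 0 and 2 over leave-one-out settings. From E14.5 to E17.5, 406 of 2249 genes passed under the stricter selection, and between 648 (without E14.5 het M1) and 1175 over leave-one-out settings. Under the main selection, 138 of 4716 genes passed in WT libraries alone and 337 in het libraries alone. DESeq2 shared 668 of its 675 calls with the 994. The cause of these changes was not tested, other than the smaller number of genes or libraries that a setting itself brings.

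Libraries of the same pair deviated together in part: the correlation of their deviations over 2281 genes ran from -0.0142 to 0.519 and was over 0.1 in 8 of 12 pairs. With the pair as a block, 0 genes passed between genotypes in any comparison (edgeR; 259 at an unadjusted p under 0.05 on average) and the average share difference had a p of 0.989. The comparisons of stages were not run with the pair as a block.

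E16.0 libraries held as few as 15 members, and the part of depth in their counts was not tested. With libraries of at least 30 members, the WT step from E14.5 to E16.0 gave 26 of 5147 genes. Of these, 19 were among the 26 called with all 24 libraries. The stricter selection gave no value for comparisons that involve E16.0.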

Other observations

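The single E12.5 member, in WT M1, held 6357 UMIs, among them 31 of Sst, 6 of Npy, 5 of Mef2c and 4 of Maf. The other 209 of the 210 barcodes that met the rest of the selection at that stage held no Lhx6 UMI. They were found in 7 of 8 libraries, with 0 in het M1 and 66 in het M2. Their other markers were not examined, so whether they were interneurons was not tested.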
